A study of Mus musculus with 7 samples.

Results

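Peroxiredoxins remove hydrogen peroxide, thioredoxins hand them the electrons for it, and thioredoxin reductases recharge the thioredoxins from NADPH. The transcripts of 10 genes of this system were looked up by symbol: Prdx1, Prdx2, Prdx3, Prdx4, Prdx5, Prdx6, Txn1, Txn2, Txnrd1 and Txnrd2. A gene was taken as measured where at least 1 probe set of the array is annotated to it alone. By that rule 7 of the 10 genes were measured, by 19 of the 45037 probe sets tested, and they are 7 of the 18193 genes with a probe set of their own. Prdx2 had 2 probe sets, Prdx3 had 1, Prdx4 had 4, Txn1 had 2, Txn2 had 3, Txnrd1 had 3 and Txnrd2 had 4. All 5 probe sets annotated to Prdx1, an abundant cytosolic peroxiredoxin, are also annotated to another gene, so its signal could not be assigned and is not given. Prdx5, of mitochondria, peroxisomes and cytosol, and Prdx6, which is reduced mainly through glutathione, were not analysed here because no probe set carried their symbol.

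The cells were TER-119+ CD71+ erythroblasts, nucleated red cell precursors, sorted from the marrow of C57BL/6 Ly5.1 mice. These hosts had been irradiated with 1050 rad at 11 to 15 weeks of age and reconstituted with liver cells of B6-Sod2tm1Cje fetuses (E13.5-16.5). The donors were Sod2-/- or their Sod2+/+ littermates, so both groups share the transplant, the irradiated host and the sort. Sod2 encodes the manganese superoxide dismutase of mitochondria, which turns superoxide into hydrogen peroxide, the substrate of the peroxiredoxins. Arrays of 3 Sod2-/- samples (replicates 31, 35 and 39) and 4 Sod2+/+ samples (replicates 17, 29, 33 and 37) were compared, and 1 more Sod2-/- array that the design text counts was not used here. The series text calls the arrays biological replicates without naming the animals, and each p-value sets a difference against the spread among these arrays alone. In the main fit that spread is estimated with the help of all tested probe sets. The sources used here do not say that host and donor cells were separated in the sort.

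The system is arranged by compartment. In the cytosol, Prdx1 and Prdx2 draw on Txn1, and Txn1 is reduced by Txnrd1. In mitochondria, Prdx3 draws on Txn2, which is reduced by Txnrd2. Prdx4 works in the endoplasmic reticulum and passes its oxidation to protein disulfide isomerases. Red cells are known for a very high content of peroxiredoxin 2, and mice that lack it develop hemolytic anemia. Both reductases are selenoproteins, whose catalytic selenocysteine is inserted at a UGA codon with the help of dedicated factors.

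Values are log2 intensities as deposited, and differences are Sod2-/- minus Sod2+/+ on that scale. Each adjusted p is from limma over all tested probe sets, and a probe set was called at an adjusted p under 0.05. Prdx4 and Txn1 were lower in the Sod2-/- samples, and no peroxiredoxin, thioredoxin or reductase was called higher. Over the 19 probe sets 2 were called lower and 0 higher, where 2.83% of all tested probe sets were lower and 0.566% higher. By the brightest probe set of each gene, 2 of the 7 genes were lower and 0 higher, where 4.47% of all genes were lower and 0.412% higher. At an unadjusted p under 0.05 there were 6 of the 19 probe sets, and 19.5% of all tested probe sets. The median difference of the 7 genes was -0.12, against 0.02 over all genes. In the ranges of intensity that hold the 7 genes, the medians of all probe sets ran from -0.27 to -0.07. Of the 7 genes, 6 lay below 0 and 1 above, and 45.8% of all genes lay below 0. All 7 values of a probe set leave no overlap between the genotypes in 3 of the 19 probe sets on the lower side and 2 on the higher side. Over all probe sets these shares were 10.2% lower and 7.84% higher.

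**Figure D1:**
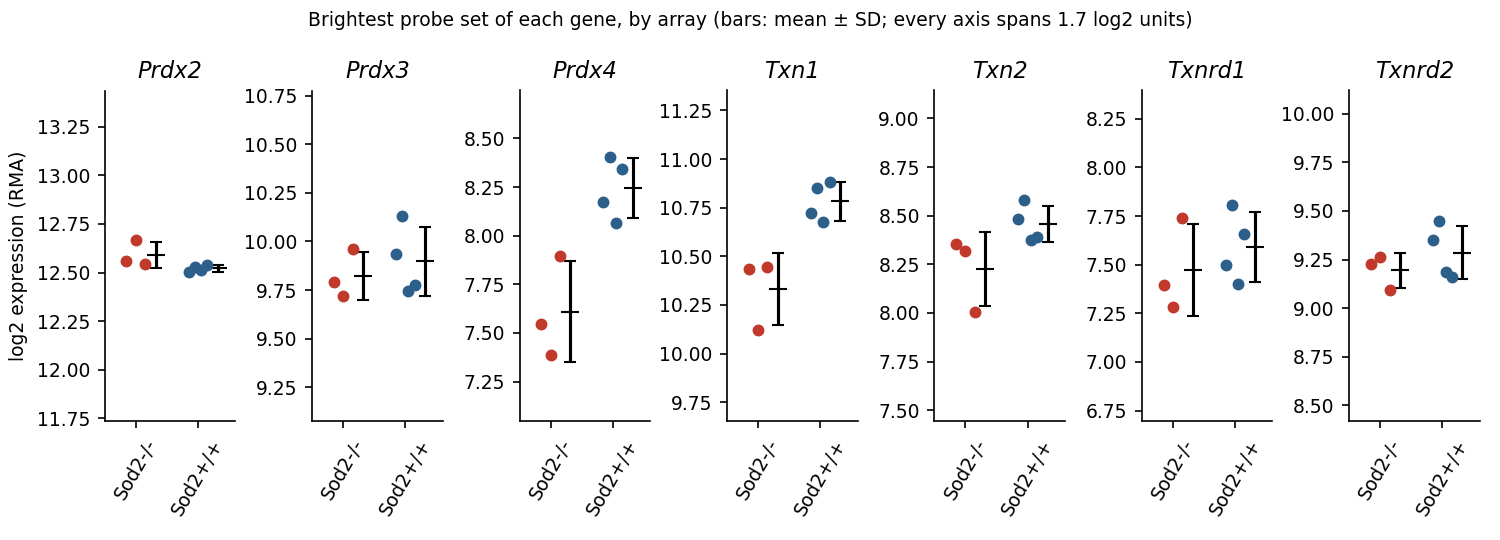
Log2 intensity of the brightest probe set of each of the 7 measured genes, 1 point per array, with Sod2-/- left of Sod2+/+ and bars for the group mean ± SD. Prdx4 and Txn1 are separated between the genotypes, with all 3 Sod2-/- arrays below all 4 Sod2+/+ arrays, as in Txn2, which was not called, while Prdx2 separates the other way without being called and Prdx3, Txnrd1 and Txnrd2 overlap.

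Because Prdx4 and Txn1 are the genes called, the 250 bases before a RefSeq start of each are shown. With them is 1 of the 3 Txnrd1 windows, which holds a match to a stress-response motif. All are from GRCm38.p6 and run 5′ to 3′ on the gene's strand. Of the 10 genes, 9 had windows in the RefSeq table, 11 windows in all. Capitals mark an E-box (CACGTG) in Prdx4 and the core of the antioxidant response element (TGACNNNGC), here on the opposite strand, in Txnrd1. The Txn1 window holds no capitals because none of the motifs searched was found in it. The Prdx4 window is chrX:155338461-155338710 on the minus strand, the Txn1 window is chr4:57956412-57956661 on the minus strand, and the Txnrd1 window is chr10:82858956-82859205 on the plus strand. The Prdx4 window lies inside the gene's RefSeq span (chrX:155323918-155342272), so the start used is not the outermost one.
Prdx4: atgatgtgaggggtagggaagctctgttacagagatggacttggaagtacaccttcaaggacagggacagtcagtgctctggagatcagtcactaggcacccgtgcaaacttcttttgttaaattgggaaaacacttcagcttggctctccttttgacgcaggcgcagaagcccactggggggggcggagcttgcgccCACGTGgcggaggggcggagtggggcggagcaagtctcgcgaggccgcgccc
Txn1: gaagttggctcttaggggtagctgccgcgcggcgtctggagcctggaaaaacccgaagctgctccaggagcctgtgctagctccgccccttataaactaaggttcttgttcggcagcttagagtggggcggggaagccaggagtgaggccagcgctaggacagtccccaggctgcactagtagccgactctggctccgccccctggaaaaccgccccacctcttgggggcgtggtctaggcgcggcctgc
Txnrd1: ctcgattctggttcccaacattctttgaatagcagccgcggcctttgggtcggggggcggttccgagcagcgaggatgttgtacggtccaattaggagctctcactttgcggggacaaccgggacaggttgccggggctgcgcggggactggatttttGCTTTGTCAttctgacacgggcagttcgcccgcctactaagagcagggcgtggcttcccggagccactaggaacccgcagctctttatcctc

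The motifs were searched on both strands, from 250 bases before to 50 after the start. They were TGACNNNGC, the GATA motifs AGATAA and TGATAA, the FOXO motif TGTTTAC and the E-box CACGTG. The E-box of Prdx4 begins at position -52 from the RefSeq start used here, and 7.15% of all 32851 windows hold that motif. The TGACNNNGC match of Txnrd1 begins at position -92 and reads TGACAAAGC on the minus strand. Prdx1 holds another, TGACTCAGC at position -133 on the minus strand, and 12.4% of all windows hold this motif. AGATAA is in 11.2% of all windows, TGATAA in 9.05% and TGTTTAC in 3.65%, and none of the 3 was found in the windows of these genes. A match is a run of letters and no evidence of a bound site.

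Among the cytosolic peroxiredoxins Prdx2 was measured. On its brightest probe set Prdx2 gave 12.56, 12.67 and 12.54 in Sod2-/- replicates 31, 35 and 39. The same probe set gave 12.50, 12.53, 12.51 and 12.54 in Sod2+/+ replicates 17, 29, 33 and 37. All 3 Sod2-/- arrays lay above all 4 Sod2+/+ arrays, replicate 35 clearly and the others by little, and the difference of 0.07 ± 0.06 (SE) was not called (95% interval -0.07 to 0.21, adjusted p = 0.603). The second Prdx2 probe set read 11.18, 11.33 and 11.14 in Sod2-/- and 11.20, 11.11, 10.91 and 11.03 in Sod2+/+ arrays, and these overlap (difference 0.16 ± 0.09, adjusted p = 0.374). Prdx2 was the 1 measured gene whose difference lay above 0.

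Prdx3, the peroxiredoxin of the mitochondrial matrix, had 1 probe set. Its values were 9.79, 9.72 and 9.96 in the Sod2-/- arrays, against 9.94, 10.13, 9.74 and 9.78 in the Sod2+/+ arrays. The ranges overlap almost wholly. The means were 9.82 ± 0.12 and 9.90 ± 0.18 in Sod2-/- and Sod2+/+ (SD, n = 3 and 4), and the difference of -0.07 was not called (SE 0.11, 95% interval -0.32 to 0.17, adjusted p = 0.765). This interval leaves room for a moderate change in either direction.

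Prdx4, the peroxiredoxin of the secretory pathway, showed the largest difference of the 7 genes by their brightest probe sets. On the brightest of its 4 probe sets, Prdx4 gave 7.54, 7.39 and 7.89 in Sod2-/- replicates 31, 35 and 39, against 8.17, 8.41, 8.07 and 8.34 in Sod2+/+ replicates 17, 29, 33 and 37. Every Sod2-/- array lay below every Sod2+/+ array, with replicate 35 the lowest. The means were 7.61 ± 0.26 in Sod2-/- and 8.25 ± 0.16 in Sod2+/+ (SD). Prdx4 was thus 1.56-fold lower in the Sod2-/- samples (difference -0.64 ± 0.13, SE, 95% interval -0.94 to -0.34, adjusted p = 0.0406).

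The other 3 Prdx4 probe sets were dimmer and none was called. The second by mean intensity read 5.58, 5.21 and 5.78 in Sod2-/- arrays and 5.71 to 5.78 in Sod2+/+ arrays (difference -0.23, adjusted p = 0.350). The third read 4.40, 4.31 and 4.59 in Sod2-/- arrays and 4.58, 5.29, 4.62 and 5.14 in Sod2+/+ arrays (difference -0.47, adjusted p = 0.188). Both lie on the same side of 0 as the called one. The dimmest, with all values between 3.28 and 3.54, had a difference of 0.11 (adjusted p = 0.416). Averaged over all its 4 probe sets, Prdx4 had a difference of -0.31 and was not called (adjusted p = 0.107).

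Of the thioredoxins, Txn1, the cytosolic electron donor that also serves ribonucleotide reductase, was the second gene called. On its brightest probe set, Txn1 gave 10.43, 10.12 and 10.44 in Sod2-/- replicates 31, 35 and 39, against 10.72, 10.85, 10.68 and 10.88 in Sod2+/+ replicates 17, 29, 33 and 37. The groups do not overlap, and replicate 35 was again the lowest Sod2-/- array. The means were 10.33 ± 0.18 in Sod2-/- and 10.78 ± 0.10 in Sod2+/+ (SD). Txn1 was thus 1.37-fold lower in the Sod2-/- samples (difference -0.45 ± 0.10, SE, 95% interval -0.68 to -0.23, adjusted p = 0.0478). The other Txn1 probe set, a dim one, did not follow it. It read 5.17, 5.34 and 5.53 in Sod2-/- and 5.18, 4.70, 5.20 and 5.42 in Sod2+/+ arrays, with a difference of 0.22 (adjusted p = 0.508). The mean of both Txn1 probe sets had a difference of -0.12 (adjusted p = 0.524).

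Txn2, the mitochondrial thioredoxin, lay lower on each of its 3 probe sets without being called. On the brightest, it gave 8.35, 8.32 and 8.01 in Sod2-/- arrays, against 8.48, 8.58, 8.38 and 8.39 in Sod2+/+ arrays. These do not overlap, although replicate 31 falls only just short of the lowest Sod2+/+ array. The difference was -0.23 ± 0.10 (SE; 95% interval -0.46 to -0.00, adjusted p = 0.247). The second and the third had differences of -0.22 (adjusted p = 0.289) and -0.24 (adjusted p = 0.225). On all 3 the lowest array was Sod2-/- replicate 39, unlike for Prdx4 and Txn1.

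Of the reductases, neither was called. Txnrd1, the cytosolic one, gave 7.40, 7.28 and 7.74 on its brightest probe set in Sod2-/- arrays, against 7.50, 7.81, 7.40 and 7.66 in Sod2+/+ arrays. These overlap, and the difference was -0.12 ± 0.13 (SE; 95% interval -0.42 to 0.18, adjusted p = 0.683). The second Txnrd1 probe set, a dim one, lay on the other side of 0, with 4.78, 4.70 and 4.57 in Sod2-/- and 4.34, 4.28, 4.43 and 4.53 in Sod2+/+ arrays. It separates the genotypes, with a difference of 0.29 ± 0.09 (SE), but was not called (unadjusted p = 0.0085, adjusted p = 0.104). The third had a difference of 0.05 (adjusted p = 0.856). Probe sets of 1 gene need not bind the same transcript forms, and which forms these bind was not examined.

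Txnrd2, the mitochondrial reductase, gave 9.23, 9.26 and 9.09 on its brightest probe set in Sod2-/- arrays, against 9.35, 9.45, 9.18 and 9.16 in Sod2+/+ arrays. The groups overlap, with a difference of -0.09 ± 0.09 (SE; 95% interval -0.30 to 0.11, adjusted p = 0.641). Its other 3 probe sets had differences of -0.07 (adjusted p = 0.844), 0.03 (adjusted p = 0.930) and 0.01 (adjusted p = 0.989), in order of falling intensity. None of the 3 measured genes of the mitochondrial chain, Prdx3, Txn2 and Txnrd2, was called on any probe set.

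**Figure D2:**
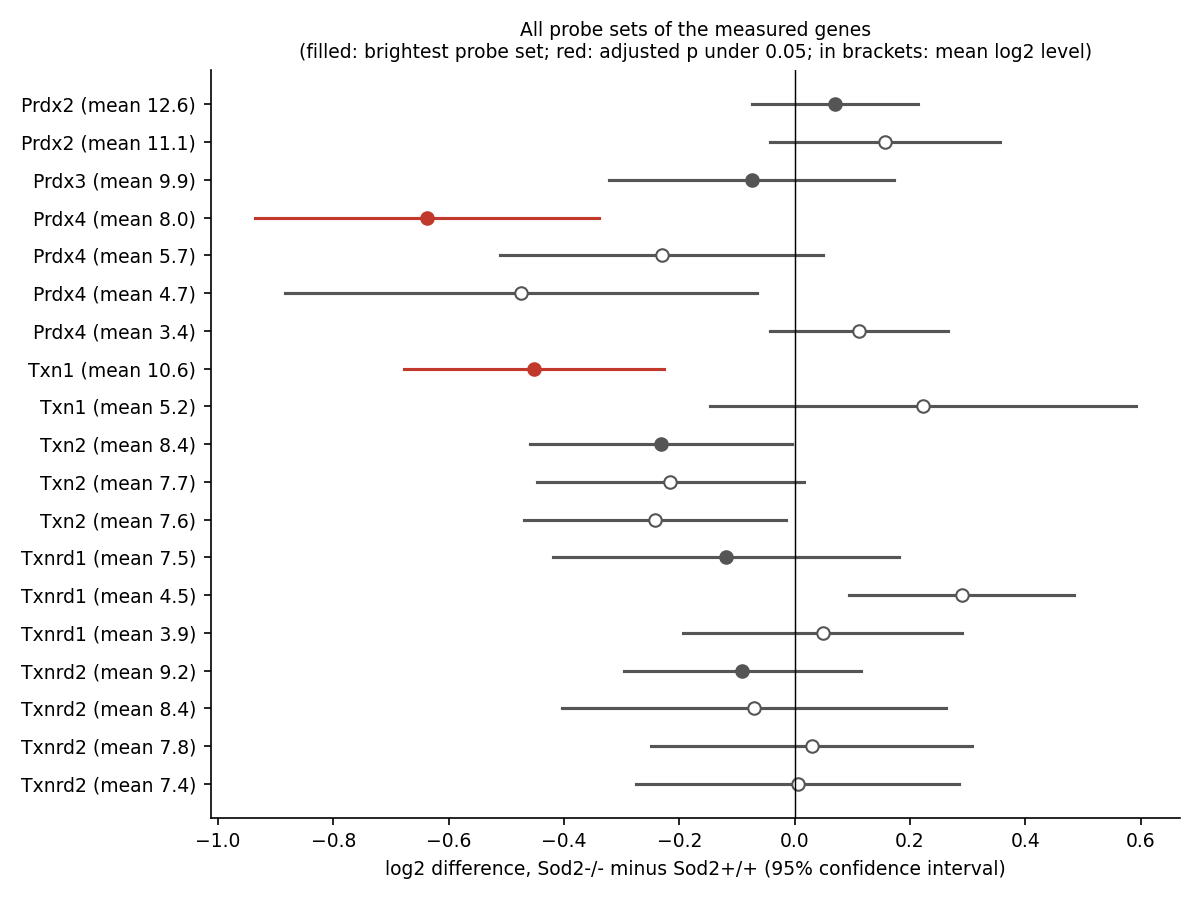
Difference in log2 intensity, Sod2-/- minus Sod2+/+, for each of the 19 probe sets, with 95% intervals from limma. Filled points are each gene's brightest probe set and red ones passed the threshold. Prdx4 at -0.64 and Txn1 at -0.45 passed, and the other probe sets of both genes lie closer to 0.

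The calls of Prdx4 and Txn1 rest on narrow margins. Without Sod2-/- replicate 35, the lowest array for both, the difference of Prdx4 was -0.53 (adjusted p = 0.132) and that of Txn1 -0.35 (adjusted p = 0.134). With any 1 array left out Prdx4 lay between -0.78 and -0.53 and passed the threshold only without Sod2-/- replicate 39 or Sod2+/+ replicate 33. Txn1 lay between -0.51 and -0.35 and passed with none left out, at adjusted p of 0.0577 to 0.134. The arrays were processed on 2 fluidics stations, and each held both genotypes. On station 1 (Sod2-/- replicate 31, Sod2+/+ replicates 17 and 29) Prdx4 had a difference of -0.74, and on station 2 it was -0.56 (adjusted p = 0.338). Txn1 had -0.36 on station 1 and -0.50 (adjusted p = 0.279) on station 2. On station 2 alone 0 of all tested probe sets were called in either direction. With the station as a block the adjusted p was 0.0701 for Prdx4 and 0.0787 for Txn1. The lone Sod2-/- array of station 1 has no spread of its own and is assumed to vary like the others. Sod2-/- replicates 31 and 39 came from another chip lot than the remaining 5 arrays. With lot as a block, the difference was -0.86 for Prdx4 (adjusted p = 0.0554) and -0.66 for Txn1 (adjusted p = 0.0400), and both then rest on Sod2-/- replicate 35.

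**Figure D3:**
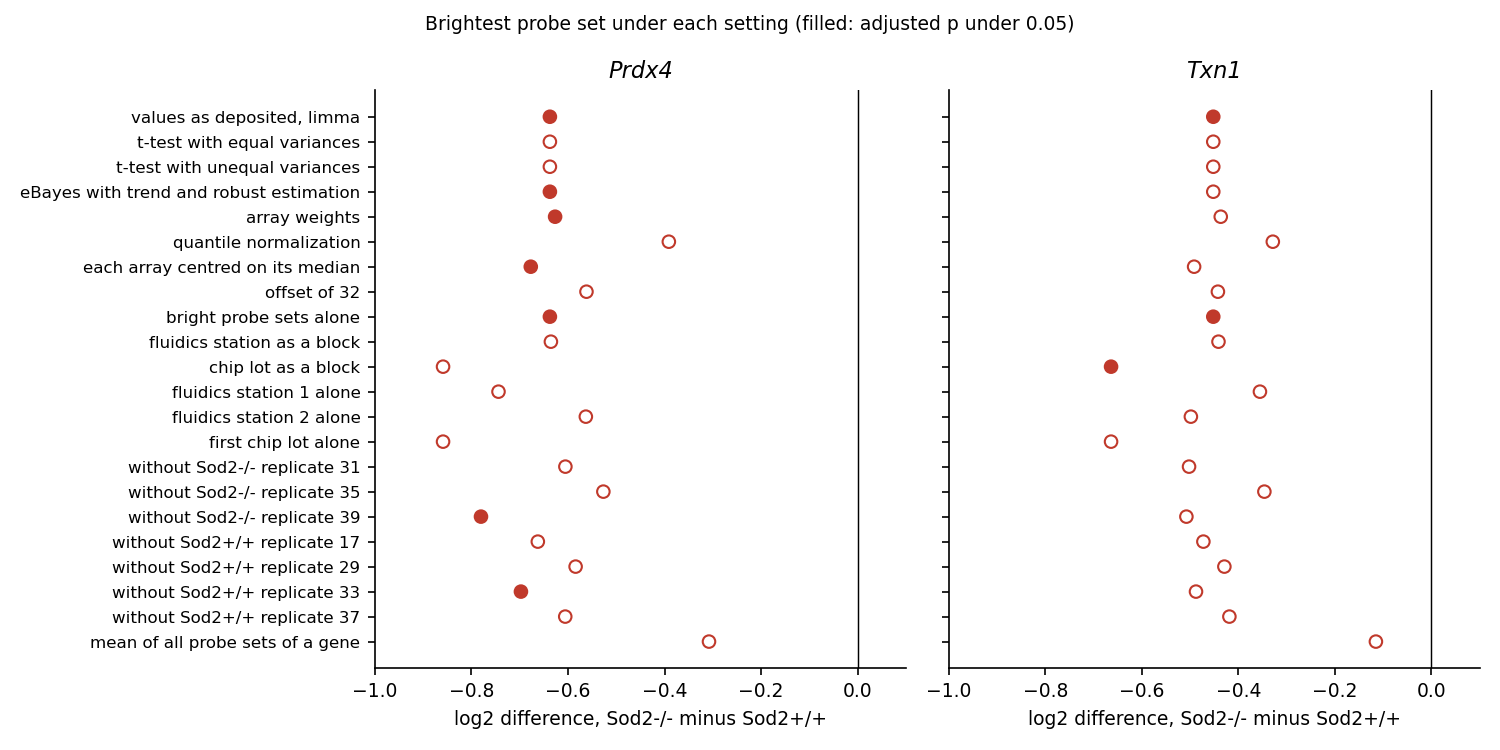
Difference in log2 intensity, Sod2-/- minus Sod2+/+, of Prdx4 and Txn1 under the settings tried, with filled points where the adjusted p was under 0.05. Prdx4 ranges from -0.86 to -0.31 and Txn1 from -0.66 to -0.12, and every point lies below 0.

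The scale of the arrays bears on these values, because probe sets of middle and high intensity lay lower in Sod2-/- arrays in general. The 95th percentile of log2 intensity was 8.20 to 8.42 in Sod2-/- and 8.42 to 8.71 in Sod2+/+ arrays, while the array medians spanned only 4.45 to 4.54. Probe sets with a mean of 6 to 8, the range that holds Prdx4 and Txnrd1, had a median difference of -0.18 and 10.6% of them were called lower. At 8 to 10, which holds Prdx3, Txn2 and Txnrd2, the median was -0.27 and 13.3% were lower. At 10 to 12, which holds Txn1, it was -0.19 with 7.96% lower, and at 12 to 15, which holds Prdx2, it was -0.07 with 1.96% lower. Prdx4 and Txn1 thus lay further below 0 than the median of their range, while Txn2, Prdx3 and Txnrd2 lay at or above theirs. After quantile normalization of all arrays, Prdx4 was -0.39 (adjusted p = 0.0899) and Txn1 was -0.33 (adjusted p = 0.0525), and neither was called. The median of the 7 genes then turned to 0.08, with Prdx3, Txn2, Txnrd1 and Txnrd2 above 0. Over all probe sets there were 255 called higher and 1275 lower as deposited, and 656 higher and 826 lower after quantile normalization.

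**Figure D4:**
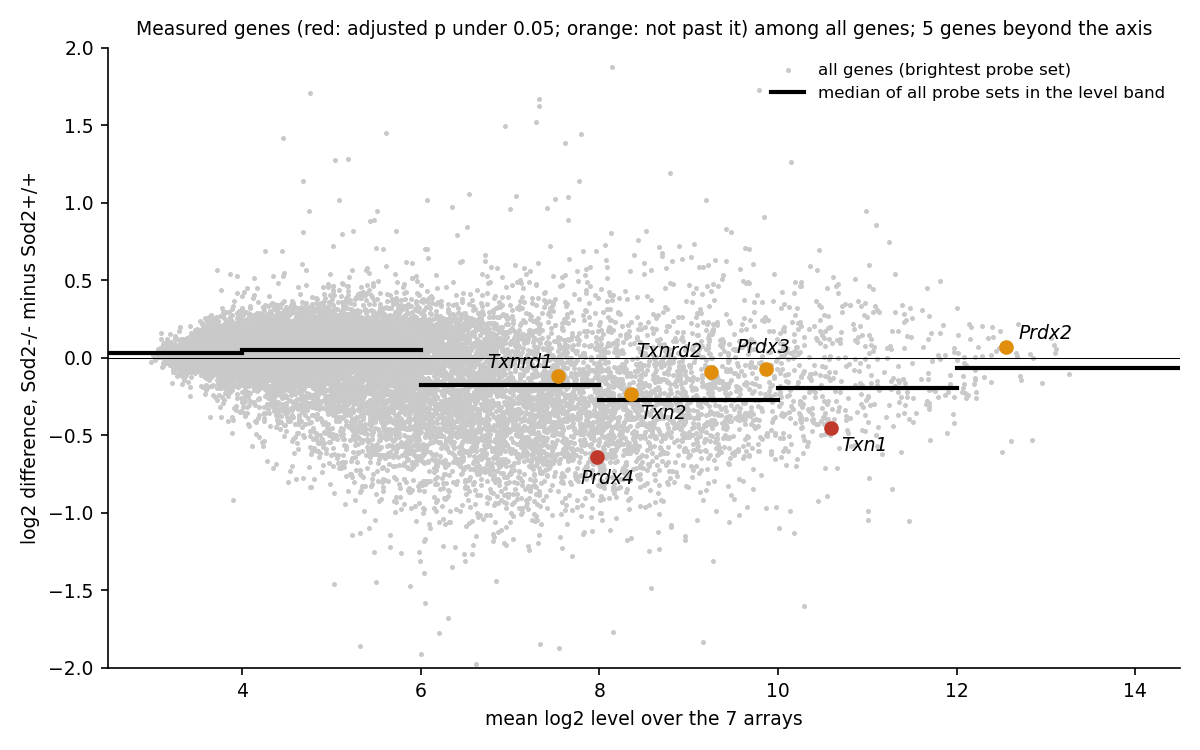
Difference in log2 intensity, Sod2-/- minus Sod2+/+, against the mean log2 intensity of the brightest probe set of each gene, all genes in grey, Prdx4 and Txn1 in red and the other measured genes in orange. Black bars mark the median of all probe sets in each range of intensity and 5 genes lie beyond the axis; Prdx4 at -0.64 and Txn1 at -0.45 lie below the bar of their range and Prdx2 at 0.07 above it.

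The labelled cell type was checked against its markers. Of 14 measured erythroblast markers, among them Alas2, Slc4a1 and Klf1, 0 were called in either direction, and their mean level was 11.5 to 11.6 in Sod2-/- and 11.4 to 11.5 in Sod2+/+ arrays. Of 8 early erythroid genes, 6 of them under a log2 of 6, 1 was lower (Myb, -1.24, adjusted p = 0.0303), with 5 below 0 and 3 above. Of 9 late erythroid genes, 1 was higher (Tspo2, 0.52, adjusted p = 0.0114), with 8 above 0, 1 below and a median of 0.13. The study reports more basophilic erythroblasts in Sod2-/- marrow by flow cytometry, and its sort gate spans several stages. That is a shift to less mature cells, whereas here Myb was lower and 8 of 9 late genes lay above 0. Tfrc, 1 of the 14 erythroblast markers, had 0.20 with no overlap between genotypes and was not called (adjusted p = 0.175). The study reports it as higher in Sod2-/- cells. The part of cell stage in the lower Prdx4 and Txn1 was not tested. Markers of other marrow cells also moved. Of 11 B cell markers 7 were lower, with a mean level of 5.05 to 5.30 in Sod2-/- and 5.95 to 6.20 in Sod2+/+ arrays, and the lowest was Sod2-/- replicate 31. Of 12 neutrophil markers 0 were called, but all 12 lay below 0, with a median difference of -0.87. Their mean level was 9.49 to 10.8 in Sod2-/- and 10.7 to 11.2 in Sod2+/+ arrays. The lowest was Sod2-/- replicate 35, which is also the lowest for Prdx4 and Txn1. The neutrophil marker S100a9 averaged 12.5 in Sod2-/- and 13.1 in Sod2+/+ arrays, a level near that of Alas2 (13.1 and 13.0). Of 8 eosinophil, basophil and mast cell markers 3 were lower (5.20 to 5.43 in Sod2-/-, 5.80 to 6.47 in Sod2+/+). Of 12 macrophage markers 0 were called, with 11 above 0 and 1 below (4.87 to 6.07 in Sod2-/-, 4.80 to 4.95 in Sod2+/+), and Sod2-/- replicate 39 was the highest. Of 7 megakaryocyte and 7 T and NK cell markers 0 were called. The part of these cells in the lower Prdx4 and Txn1 was not tested, and in sorted bulk samples fewer cells of a type and less RNA per cell cannot be told apart. The log2 ratio of 3′ to 5′ signal for Gapdh was 1.10, 1.10 and 1.21 in Sod2-/- and 1.24, 1.25, 1.45 and 1.33 in Sod2+/+ arrays (exact two-sided permutation p = 0.0571, the smallest that 3 against 4 arrays can give). For beta-actin the exact permutation p was 0.8. The part of RNA quality was not tested either. The targeted gene checks no label here, because the study places some Sod2 probe sets outside the deleted exon. The brightest read 8.09 to 8.61 in Sod2-/- and 8.20 to 8.62 in Sod2+/+ arrays.

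Genes that work beside the peroxiredoxins and thioredoxins were taken in 6 lists, each gene by its brightest probe set. Over all genes by that rule, 4.47% were lower and 0.412% higher, 45.8% lay below 0 and the median was 0.02. The medians of probe sets with a mean of 4 to 6, 6 to 8 and 8 to 10 were 0.05, -0.18 and -0.27. Of these, 1.20%, 10.6% and 13.3% were called lower. The list counts and medians are to be read beside these values. Of 8 genes listed for peroxiredoxin repair and partners, Txnip and Mpv17 among them, 0 were lower and 0 higher, with a median difference of -0.15. Whether each of the 8 acts on peroxiredoxins was not examined. Srxn1, which encodes the sulfiredoxin that restores overoxidized peroxiredoxins, had a difference of 0.01 (adjusted p = 0.985). Sesn3, a sestrin, had -0.34 (adjusted p = 0.201). It was dim and overlapped, with 4.18 to 4.40 in Sod2-/- and 4.38 to 4.87 in Sod2+/+ arrays. Gstp1, a glutathione transferase that helps to reduce Prdx6, had -0.40 (adjusted p = 0.101).

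Of 21 further thioredoxin and glutaredoxin relatives, 1 was lower and 0 higher, with a median of -0.16. Glrx, the cytosolic glutaredoxin, read 6.11, 5.35 and 5.93 in Sod2-/- and 6.56, 6.66, 6.50 and 7.03 in Sod2+/+ arrays. It was 1.85-fold lower (difference -0.89 ± 0.19, SE, adjusted p = 0.0441), a call kept with 1 of the 7 arrays left out, Sod2-/- replicate 31, and lost with any other. The mitochondrial glutaredoxin Glrx2, named here after its values were seen, had -0.82 and was not called (adjusted p = 0.0733), and Glrx5, the mitochondrial glutaredoxin of iron-sulfur cluster assembly that red cells need for heme, had 0.02 (adjusted p = 0.904). Of 11 genes whose proteins thioredoxin reduces or binds, 0 were called, with a median of -0.20 and 10 of the 11 below 0. Rrm1, the large subunit of ribonucleotide reductase, had -0.39 (adjusted p = 0.0961), and Msrb1, a methionine sulfoxide reductase and selenoprotein on chromosome 17, as Sod2, had -0.69 (adjusted p = 0.0884).

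Prdx4 shares the endoplasmic reticulum with enzymes that form disulfides, and of 13 such genes 3 were lower and 0 higher, with a median of -0.06. Pdia2, a protein disulfide isomerase, read 6.57, 6.60 and 6.46 in Sod2-/- and 7.35, 7.98, 7.54 and 7.33 in Sod2+/+ arrays, a difference of -1.01 ± 0.15 (SE, adjusted p = 0.0208). Pdia2, like Msrb1, lies on chromosome 17 with Sod2. Pdia3, the isomerase of glycoprotein folding, had -0.86 (adjusted p = 0.0488), and Vkorc1, the vitamin K epoxide reductase that can feed disulfides to the isomerases, had -0.43 (adjusted p = 0.0339). Pdia3 lost its call with any 1 array left out, Vkorc1 with any array but Sod2-/- replicate 39, and Pdia2 only without Sod2-/- replicate 35 or Sod2-/- replicate 39.

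Of 14 measured genes listed for the supply of NADPH, from which both reductases draw, 3 were lower and 1 higher, with a median of -0.27. The list named 15 genes, and G6pdx, the remaining one, was not measured by the rule used here. Whether each listed enzyme makes NADPH in these cells, Me2 and Mthfd2 among them, was not examined. Mthfd1, of cytosolic folate metabolism, had -0.64 (adjusted p = 0.0161), the mitochondrial malic enzyme Me2 had -0.64 (adjusted p = 0.0413), and Idh2, the NADP isocitrate dehydrogenase of mitochondria, had -0.62 (adjusted p = 0.0328). The gene that rose was Mthfd2, of mitochondrial folate metabolism, with 10.8, 10.2 and 11.3 in Sod2-/- and 9.99, 8.80, 8.54 and 8.86 in Sod2+/+ arrays. It was 3.31-fold higher in the Sod2-/- samples (difference 1.73 ± 0.36, SE, adjusted p = 0.0413). With 1 array left out, Mthfd1 kept its call in 6 of 7 cases (lost without Sod2-/- replicate 35), Me2 in 2 (without Sod2-/- replicate 31 or Sod2+/+ replicate 33), Idh2 in 1 (without Sod2-/- replicate 31) and Mthfd2 in 1 (without Sod2+/+ replicate 17).

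Of 9 measured genes of selenoprotein synthesis, which serves both reductases, 3 were lower and 0 higher, with a median of -0.24. Sephs2, which makes the selenium donor, had -0.57 (adjusted p = 0.0221). Trnau1ap, which binds the selenocysteine tRNA, had -0.59 (adjusted p = 0.0231). Ncl, the abundant nucleolar protein nucleolin, which also binds selenoprotein messages, had -0.52 (adjusted p = 0.0245). With 1 array left out, Sephs2 and Trnau1ap kept their call in 4 of 7 cases and Ncl in 3, and all 3 lost it without Sod2-/- replicate 35. Of the 11 calls in these lists, those of Pdia2, Mthfd1, Me2, Mthfd2, Trnau1ap and Ncl also passed after quantile normalization, and those of Glrx, Pdia3, Vkorc1, Idh2 and Sephs2 did not. With the station as a block 6 of the 11 calls were kept, those of Pdia2, Vkorc1, Mthfd1, Sephs2, Trnau1ap and Ncl. With the lot as a block 5 were kept, those of Glrx, Pdia3, Mthfd1, Idh2 and Ncl, and Mthfd2 had 1.14 (adjusted p = 0.275). Within either station alone, and by either form of the methods' t-test after adjustment, 0 of the 11 were kept. Without Sod2-/- replicate 35 also 0 were kept, and with an offset of 32 added before the logarithm 1 was, that of Mthfd1. All 11 were kept when only bright probe sets were tested, 10 with trend and robust estimation, 9 with median centring and 7 with array weights.

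**Figure D5:**
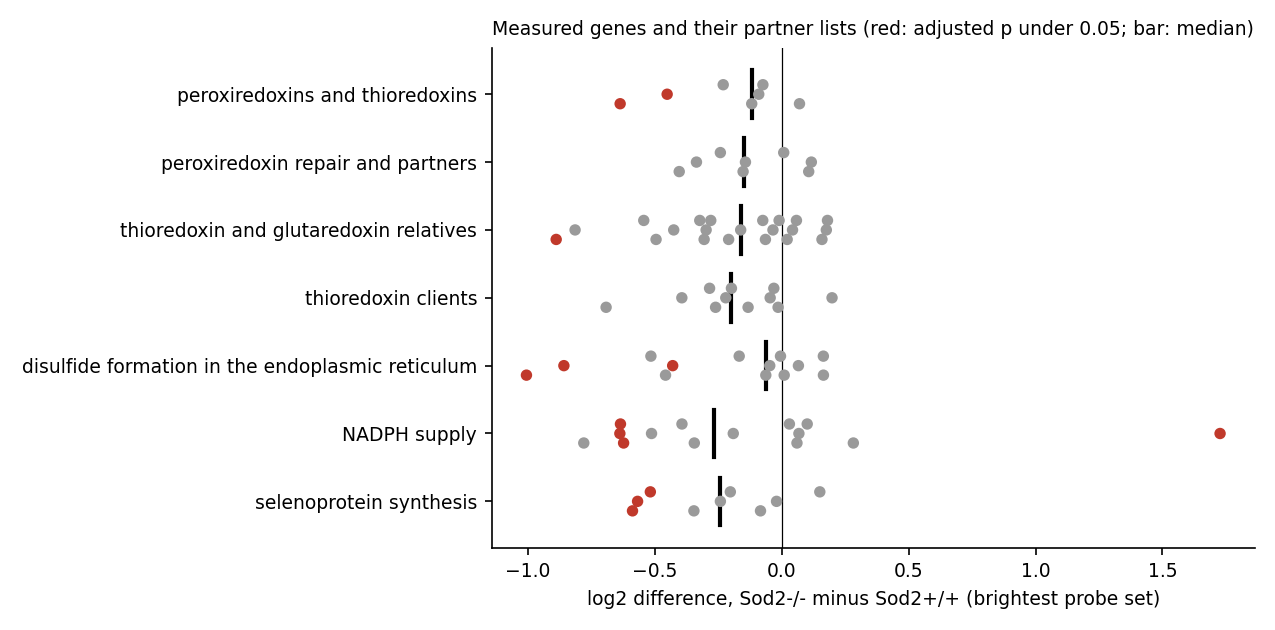
Difference in log2 intensity, Sod2-/- minus Sod2+/+, of the measured peroxiredoxin, thioredoxin and reductase genes and of each list of partner genes, 1 point per gene, in red past the threshold, with a bar at each median. The medians lie between -0.27 and -0.06, against 0.02 over all genes, and Mthfd2 at 1.73 is the gene that was called higher. The median of all probe sets was 0.05 at a mean of 4 to 6 and -0.27 at 8 to 10.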

How the data were processed

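RNA of sorted erythroblasts was hybridised to Affymetrix mouse expression arrays. The authors deposited log2 intensities from robust multi-array averaging (RMA); GCOS 1.3.037 is also named in the submitters' processing notes. They were used with no further normalization or filter. The number of arrays limits the precision. Station and chip lot were read from the settings deposited with each array. After removal of 64 control probe sets, 45037 were tested, of which 34945 are annotated to 1 gene, 932 to several and 9160 to none. The columns of other samples numbered 0.

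Sod2-/- was compared with Sod2+/+ with genotype as the term in lmFit and eBayes (limma 3.58.1, R 4.3.3), with Benjamini-Hochberg adjustment. Each gene stands for its brightest probe set. RNA quality was compared by an exact permutation test. Alternatives were the methods' t-test, robust and weighted fits (statmod 1.5.0), quantile and median scaling, an offset of 32, a filter on dim probe sets, station and lot, all probe sets of a gene, and leaving out each array. Figures used matplotlib 3.10.9 in Python 3.11.15.

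The genes and lists were chosen with earlier results of these data known. Named were all 10 genes and, per list, the 3 largest calls, or the 2 largest differences where none passed; Glrx2, Glrx5, Srxn1 and Idh2 were named after their values were seen. Promoter windows are from RefSeq.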

Additional observations from a re-analysis of the deposited data

Results flagged for a closer look

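In 2 of 19 groups tested, 1 of the 4 Sod2+/+ arrays stood apart from the other 3, with a gap to the nearest of them that was past Dixon's critical share of the group's range. Chance gives this in about 1 of 20 groups. Both cases concern Sod2+/+ replicate 37 and a reductase probe set that was not called. On the third, dim Txnrd1 probe set it read 3.79, against 3.88 to 3.90 in the other Sod2+/+ arrays (ratio 0.837). On the third Txnrd2 probe set it read 7.66, against 7.87 to 7.91 in the others (ratio 0.837).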

How the results depend on the processing

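Prdx4 and Txn1 stayed below 0 under all 21 alternatives, but Prdx4 passed the threshold in 6 and Txn1 in 2. Both passed when only bright probe sets were tested. The 2 genes and the 2 probe sets called lower became 0 with either form of the methods' t-test, quantile normalization, an offset of 32, the station as a block, either station alone and the first chip lot alone, and the genes also 0 with the mean of all probe sets. Both counts were 1 with trend and robust estimation, array weights, median centring and the lot as a block, and 0 to 1 with 1 array left out (1 without Sod2-/- replicate 39 or Sod2+/+ replicate 33). With the methods' t-test of equal variance, the adjusted p was 0.225 for Prdx4 and 0.221 for Txn1. Over all probe sets that t-test called 1 higher and 3 lower, and 0 were called with unequal variance or on station 2 alone. Lost calls under either t-test or on station 2 alone thus do not single out Prdx4 and Txn1. Other settings left many calls over all probe sets. Against 1275 lower in the main fit, there were 1333 with trend and robust estimation and 1248 with median centring. Quantile normalization gave 826 lower and the station as a block 744. Without Sod2-/- replicate 35 limma called 45 higher and 98 lower over all probe sets. The cause of these changes was not tested.

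The median of the 7 genes was 0.078 after quantile normalization and -0.24 on station 1 alone. Quantile normalization also turned Prdx3 (0.078), the Txn2 probe sets (0.019, 0.024 and 0.0042), the brightest Txnrd1 probe set (0.13) and the brightest and second of Txnrd2 (0.10 and 0.17). Median centring turned the third and the dimmest Txnrd2 probe sets (-0.010 and -0.034), Srxn1 (-0.032) and Glrx5 (-0.019). With the lot as a block, or in the first lot alone, the second Txnrd2 probe set was 0.080 and the third -0.255. Station 1 alone gave -0.23 for the third Txnrd1 probe set, 0.069 and -0.16 for the second and the dimmest of Txnrd2, and -0.23 for Srxn1. Station 2 alone gave 0.079 for Prdx3, 0.0052 for the brightest Txnrd2 probe set and -0.028 for Glrx5. The station block gave -0.022 for Srxn1, and the mean of its probe sets 0.073 for Txnrd1. With 1 array left out, values of both signs came for the third (-0.083 to 0.17), the dimmest (-0.064 to 0.11) and the second (-0.19 to 0.12) Txnrd2 probe sets, the third of Txnrd1 (-0.058 to 0.18), Prdx3 (-0.14 to 0.0034), Srxn1 (-0.12 to 0.14) and Glrx5 (-0.012 to 0.063). None of these was called. No paired analysis was possible because the genotypes share no replicate number, and the labels do not say which arrays came from the pairs that the methods describe as sorted side by side. Probe sets under a log2 of about 5 lie near the median intensity of an array, which limits what they can show.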
